A study of Mus musculus with 70 samples.

Results

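Sorted liver macrophages were set against whole liver in male mice kept for 24 weeks on a NASH (nonalcoholic steatohepatitis) diet. The comparison rests on 9 of the 70 libraries of the series, chosen by their labels for tissue, genotype, diet and sex: 5 of macrophages gated as F4/80high and CD11blow, which the labels call resident, and 4 of total liver lysate. All of these mice carried, by their labels, Lyz2.Cre+/+, a Cre allele at a gene active in myeloid cells, and none carried the myeloid osteopontin knock-in (OpnKI Mye) that the series was built around. Controls with the same genotype and the same 24 weeks on a control diet gave 4 macrophage libraries and 4 liver libraries from males, and female mice on the NASH diet gave 6 macrophage and 4 liver libraries in which the same difference was read again.

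Whole liver RNA comes mostly from hepatocytes, with smaller parts from endothelial cells, stellate cells, bile duct cells and immune cells. Kupffer cells are the resident macrophages of the liver sinusoids; in steatohepatitis, macrophages with a lipid-handling program (Trem2, Gpnmb, Cd9, Spp1) gather in the tissue, stellate cells lay down collagen, and duct-like cells expand. A gene that rises in diseased liver can therefore be made in a resident macrophage, in a recruited one that the gate leaves out, or in a cell of another kind. In bulk samples fewer cells of a type and less RNA per cell cannot be told apart, and here tissue, cell sorting, RNA kit and count table all go with the group, so that their parts in any difference cannot be told apart either.

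Library totals were 17007445 to 24317721 counts in NASH macrophages, 17445588 to 24130811 in NASH liver and 11245097 to 23722522 in the other groups used. Over genes with 20 to 200 counts summed over a pair, male control liver replicates 3 and 4 differed by less than the sampling noise. The chi-square per degree of freedom was 0.0671, against 3.12 to 10.1 in 27 other pairs of replicates. More abundant genes were not part of that check. The most abundant gene of each held 2.62% of the counts in replicate 3 and 13.4% in replicate 4. Both replicates were averaged into 1 library and counted as 1 sample, so that control liver has n = 3. Xist and Ddx3y went against the male label in that library and in control macrophage library 4. None of the 9 libraries of the comparison itself went against its sex label. Lyz2, the locus of the Cre allele and a close paralog of Lyz1 with which it can share reads, varied among libraries labelled with the same allele. It stood at 1482 to 3252 CPM in male and 1840 to 2451 CPM in female NASH macrophages, at 2418, 1834, 1971 and 113 CPM in control macrophages, lowest in library 4, at 160 to 312 CPM in male NASH liver, and at 1.62 to 2.66 CPM in female NASH liver; what this says of the genotypes was not tested. Liver NASH library 1 stood apart from the other 3 liver libraries in many genes below, macrophage NASH libraries 2 and 4 in genes of lipid-associated macrophages, and libraries 4 and 5 in endothelial genes. For 8 genes the male NASH liver had at least 1.06 CPM (CPM are counts scaled to a common library size, after TMM scaling) on average, with 0 counts in all macrophage and all female liver libraries (Rpp14, Entpd4, Ece2, Lipo1, Gm2083, Mir8112, Trex1 and Atrip), and for these no difference between tissues can be read across the tables.

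The sorted cells carried the genes of resident macrophages. All 7 Kupffer cell genes of the reference list (Clec4f, Vsig4, Timd4, Cd5l, Marco, Folr2, Fcna) and all 16 pan-macrophage genes were higher in macrophages than in liver at an adjusted p below 0.05, where 39.1% of the 12948 genes tested were higher and 39.7% lower (5064 and 5144 genes; 6610 and 3890 when scaled by library totals). Clec4f, a lectin of Kupffer cells, stood at 6364, 4525, 9951, 3330 and 8196 CPM in the macrophage libraries and at 91.2, 151, 71.3 and 145 CPM in the liver libraries. Every macrophage library lay above every liver library, and the log2 difference was 5.80 (SE 0.46, adjusted p = 1.2e-06). Adgre1, which encodes the sorting antigen F4/80, stood at 1564 to 2048 CPM in macrophages and 27.1 to 53.8 CPM in liver. Itgam, which encodes CD11b, was present in the sorted cells at 57.2 to 168 CPM, against 6.64 to 8.28 CPM in liver. Albumin (Alb) stood at 31.4 to 181 CPM in macrophages and 76730 to 92540 CPM in liver, and all 18 hepatocyte genes were lower in macrophages.

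Marker genes of other cell types stood at different levels in the sorted libraries, and which cells their RNA came from was not tested. Of 14 sinusoidal endothelial genes, 12 were higher in the sorted macrophages than in liver (median log2 difference 1.70), against 4 higher and 1 lower on the control diet (median -0.07) and 4 higher and 2 lower in females on the NASH diet (median -0.44); their summed level ranged from 2234 to 5311 CPM in NASH macrophages, 2149 to 2988 CPM in control macrophages and 515.3 to 876 CPM in NASH liver. Stab2, a scavenger receptor of sinusoidal endothelium, stood at 446 to 845 CPM in macrophages. Kdr, the endothelial VEGF receptor, stood at 110, 110, 107, 292 and 469 CPM, high in libraries 4 and 5. The 13 T and NK cell genes summed to 6.75 to 68.94 CPM, highest in library 4, and 12 of 12 tested cholangiocyte genes were lower in macrophages than in liver. The 10 neutrophil genes summed to 111.9 to 161.2 CPM in NASH macrophages and 9.206 to 18.51 CPM in NASH liver. Of 5 neutrophil genes tested, 3 were higher in macrophages and 1 lower. Macrophage differences in genes that endothelium also makes are to be read beside these values; the part of endothelial RNA in them was not tested.

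The 7 Kupffer genes also gave a scale. Their mean CPM was 37.57 (Vsig4) to 81.44 (Marco) times higher in macrophages than in liver, with a median ratio of 44.95. For every gene the macrophage to liver ratio was divided by 44.95 and written as a percent, here called the macrophage-referenced share: the part of the liver level that cells like the sorted ones would supply if the liver held as much of their RNA as the Kupffer genes show. A share near 100% is the value of a gene with the distribution of the Kupffer genes, a share near 0 that of a gene whose liver level the sorted cells could not supply on this scale. The scale assumes that the reference genes are made by no other liver cell and that cells in tissue express as the isolated ones do, and it has no replicate test. In macrophage NASH libraries 2 and 4 the 7 genes summed to 16690 and 14170 CPM. In macrophage NASH libraries 1, 3 and 5 they summed to 25370, 28250 and 22810 CPM. In females the ratios ran from 4.621 (Marco) to 41.31 (Cd5l). Their median was 22.55, so the female scale differs by the reference itself.

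On the diet, 1465 genes rose in male liver (11.3% of 12988 tested) and 1265 fell (9.74%). Of the risen genes 1423 could be tested between macrophages and liver: 678 (47.6%) were higher in macrophages, 518 (36.4%) lower and 227 not called, with a median log2 difference of 0.50 against 0.02 over all genes. Of 1213 testable fallen genes, 358 were higher in macrophages and 648 lower, with a median of -0.58. Both steps use the same 4 NASH liver libraries, so the counts describe the genes and do not test them. In control-diet animals, whose liver libraries also enter the choice of the risen genes, 810 of 1448 risen genes were on the macrophage side and 421 on the liver side (39.2% and 39.7% of all genes). In females on the NASH diet 795 of 1362 were on the macrophage side and 440 on the liver side (40.3% and 41.9% of all genes); the female libraries took no part in that choice.

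**Figure D1:**
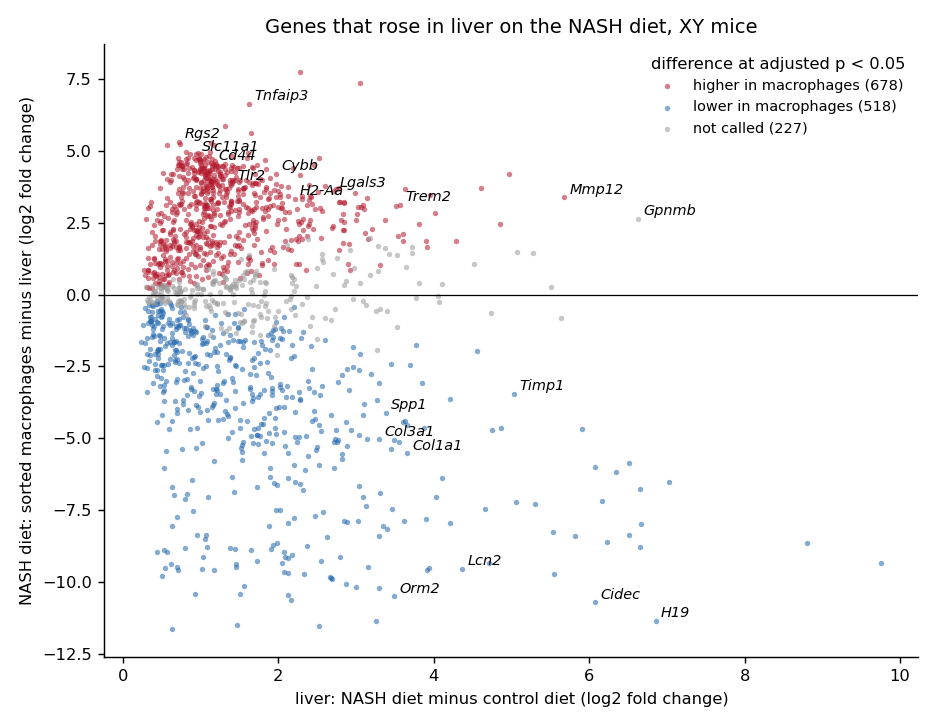
Genes that rose in male liver on the NASH diet, with the rise in liver on the horizontal axis (log2 fold change) and the difference between sorted macrophages and liver on the vertical axis (log2 fold change). Each point is 1 of 1423 genes; 678 were higher in macrophages (red), 518 lower (blue) and 227 not called (grey), and among genes with a large rise Mmp12 lies on the macrophage side, Cidec and H19 on the liver side.

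These counts leaned on single liver libraries. Without liver NASH library 1, 921 risen genes remained testable, 409 on the macrophage side (44.4%) and 387 on the liver side (42%). Without liver NASH library 3 the numbers were 489 and 377 of 1042. The number that rose in liver was 724 without control library 1, 556 without control library 2 and 1828 without the merged control library. Scaling by library totals in place of TMM moved all macrophage differences up by 0.49 on the log2 scale, which gave 750 risen genes on the macrophage side and 450 on the liver side, and turned the liver diet counts into 2523 risen and 420 fallen.

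By share, most risen genes stood low on this scale, as did most genes tested. The share was below 10% for 968 of the 1423 risen genes, 10 to 50% for 397 and 50% or more for 58, where over all 12930 genes the numbers were 11209, 1391 and 330. For 193 risen genes it was below 0.1%, as for 1293 of all. The median share was 3.17% for risen genes, 1.51% for fallen genes and 2.27% for all genes tested. A gene can thus be several times higher in CPM in macrophages than in liver and still have a small share. The number of genes at 50% or more was 110 without liver NASH library 1, 24 without liver NASH library 2, 35 without liver NASH library 4 and 89 without macrophage NASH library 3. It was 25 without macrophage libraries 2 and 4. The share itself moved by over 1.5 times for 259 of the 1423 genes without liver library 1, for 174 without macrophage library 4, for 330 without macrophage libraries 2 and 4, and for 0 to 20 without any other single library. With the pan-macrophage list as reference 265 risen genes had a share of 50% or more, and the median share was 7.35%. In females 325 of 1422 risen genes had a share of 50% or more, with a median of 9.33%.

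**Figure D2:**
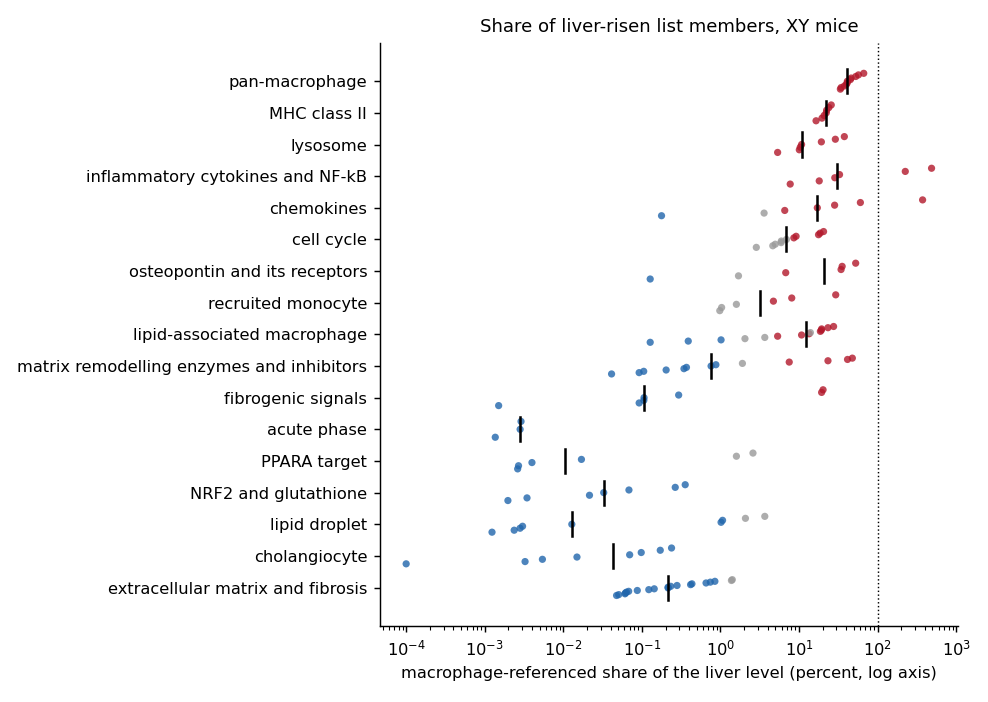
Macrophage-referenced share (percent, log axis) of the members of 17 gene lists that rose in male liver on the NASH diet; each point is a gene, red where it was higher in macrophages than in liver, blue where lower and grey where not called, and black bars are medians. Pan-macrophage and MHC class II members lie mostly between 10 and 100% (dotted line at 100%), matrix, duct, lipid droplet and acute phase members mostly below 1%, and 1 gene with a share of 0 is drawn at the left edge.

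The genes that rose in liver and were farthest on the macrophage side included known regulators of macrophage activation. Among risen genes of at least 10 CPM in NASH liver these 10 had the largest differences: Tnfaip3, Plek, Rgs2, Lilrb4a, Myo9a, Slc15a3, Ier5, Itgal, Slc11a1 and Themis2. Tnfaip3, an inhibitor of NF-kB signalling, stood at 654, 1302, 1056, 1672 and 1739 CPM in macrophages and at 24.1, 7.82, 9.78 and 8.99 CPM in liver. The groups were far apart, liver library 1 was the highest of its group, and the difference was 6.65 (SE 0.51, adjusted p = 9.4e-07). Over the Kupffer genes the median difference was 5.47, so that Tnfaip3 had a share above 100%. The part of cell isolation in its level was not tested. Slc11a1, the phagosomal metal transporter NRAMP1, stood at 575, 704, 796, 562 and 687 CPM in macrophages and at 26.7, 21.5, 19.7 and 21.4 CPM in liver. All macrophage libraries lay above all liver libraries, by 4.88 (SE 0.17, adjusted p = 8e-09), and the share was 66.3%. Plek, a platelet and leukocyte protein kinase C substrate, differed by 5.87 with a share of 131%, and Itgal, the leukocyte integrin alpha L chain, by 4.89 with a share of 66.9%. In macrophages themselves Slc11a1 fell with the diet by 0.41 (adjusted p = 0.021) and Itgal by 0.43 (adjusted p = 0.016), while the other 8 were not called.

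The 10 genes with the largest differences on the liver side were Trex1, which depends on the count table as given above, 2010003K11Rik, Ugt1a9, 9130409I23Rik, H19, Cidec, Orm2, Inhbe, Hsd17b13 and Apoa4. Cidec, a lipid droplet fusion protein, stood at 192, 275, 329 and 243 CPM in NASH liver, at 5.23, 3.68 and 2.54 CPM in control liver and at 0 to 0.532 CPM in macrophages. NASH liver lay above both other groups in every library. The macrophage difference was -10.71 (SE 0.59, adjusted p = 8.4e-08) and the rise in liver 6.07 (SE 0.96, adjusted p = 0.0015). Hsd17b13, an enzyme of hepatocyte lipid droplets, stood at 1383, 947, 979 and 718 CPM in NASH liver and at 0.139 to 1.48 CPM in macrophages, and Apoa4, an apolipoprotein, at 4481, 9970, 13140 and 7587 CPM against 1.01 to 17.8 CPM. The imprinted RNA H19 stood at 469 CPM in liver library 1 and 8.4 to 12.8 CPM in the other 3, so its mean rests on that library. 9130409I23Rik had 0 counts in the 5 macrophage libraries and 15.4 CPM in liver, at least 611-fold lower in macrophages at a floor of 3 counts over the group, and Ugt1a9 had 1 count in macrophages, a liver to macrophage ratio of 4920 with a 95% counting interval of 882 to 194000 (counting error only).

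Most pan-macrophage genes rose in liver. Of the 16, 11 rose in liver (9 without liver NASH library 1, 5 without control liver library 2). In macrophages 0 rose and 4 fell, against 5.36% and 2.83% of all genes. For 16 genes, 0 risen is near the share of all genes. The 4 became 1 without control macrophage library 2 and 0 without macrophage libraries 2 and 4. The diet effect was more negative in macrophages than in liver for 12, and for 6 when control liver library 1 or 2 was left out. It was more negative for 38% of 1448 liver-risen genes and for 5.80% of all genes. This difference of diet effects shares the liver libraries with the rise in liver. Mpeg1, a pore-forming protein of phagocytes, stood at 278, 262, 211 and 234 CPM in NASH liver and at 78.3, 66.3 and 134 CPM in control liver. The NASH libraries were all above the controls, a rise of 1.38 (SE 0.23, adjusted p = 0.0019). In macrophages Mpeg1 differed between diets by -0.17 (adjusted p = 0.24) and the difference of the diet effects was -1.65 (SE 0.29, adjusted p = 0.0058). Cybb, the phagocyte oxidase subunit, stood at 171 CPM in liver library 1 and 38.7 to 46.5 CPM in the other 3, and its share was 41.1% with and 79.3% without that library. Shares of the list ran from 21.2 to 103.2% with a median of 43.17%. None of the Kupffer genes rose in liver, and Fcna fell by 1.25 (SE 0.28, adjusted p = 0.0083).

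Genes of lipid-associated macrophages were split between the sorted cells and the rest of the liver. Of 18 tested, 14 rose in liver (12 without control liver library 2), 8 of these were higher in macrophages, 3 lower and 3 not called. Trem2, a lipid receptor of these macrophages, stood at 55.6, 201, 85, 176 and 68.2 CPM in macrophages and at 16.9, 12.5, 14 and 10.2 CPM in liver. Macrophage libraries 2 and 4 were highest, but all 5 lay above liver, by 3.12 (SE 0.43, adjusted p = 7.7e-05). Its share was 19.4%, or 9.48% without macrophage libraries 2 and 4. Mmp12, macrophage elastase, stood at 137, 1017, 153, 572 and 32 CPM in macrophages and at 44.4, 37.2, 36.9 and 26.8 CPM in liver. The groups overlapped through macrophage library 5; the difference was 3.39 (SE 0.89, adjusted p = 0.0053) and the share 23.4%, or 5.39% without libraries 2 and 4. Gpnmb, a lysosomal glycoprotein, stood at 55.1, 507, 18.1, 713 and 11.5 CPM in macrophages and at 48.7, 19, 68.5 and 30 CPM in liver. Libraries 2 and 4 were far above and libraries 3 and 5 below every liver library, and the difference of 2.65 was not called (adjusted p = 0.064).

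Galectin-3 and lipoprotein lipase were higher in every macrophage library than in any liver library. Lgals3 stood at 613, 755, 588, 600 and 378 CPM in macrophages and at 66.5, 33.9, 53.4 and 35.6 CPM in liver. The groups did not overlap (difference 3.62, SE 0.28, adjusted p = 9.7e-07) and the share was 27.6%. Lpl stood at 1258, 2609, 1253, 2204 and 1024 CPM in macrophages and at 447, 121, 139 and 86.4 CPM in liver, where library 1 was highest, with a difference of 3.07 (SE 0.55, adjusted p = 0.00047) and a share of 18.7%, or 35.6% without that library. On the liver side were Spp1, Lgals1 (galectin-1; difference -2.53, SE 0.36, adjusted p = 0.0001, share 0.39%) and Plin2 (the coat protein of lipid droplets; -1.14, SE 0.18, adjusted p = 0.00023, share 1.02%). Besides Gpnmb, Cd63 and Cd36 rose in liver and were not called between the tissues, with differences of -0.11 and 0.71. In macrophages 9 of the 18 rose with the diet, 3 without macrophage libraries 2 and 4 and 5 without control macrophage library 2.

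**Figure D3:**
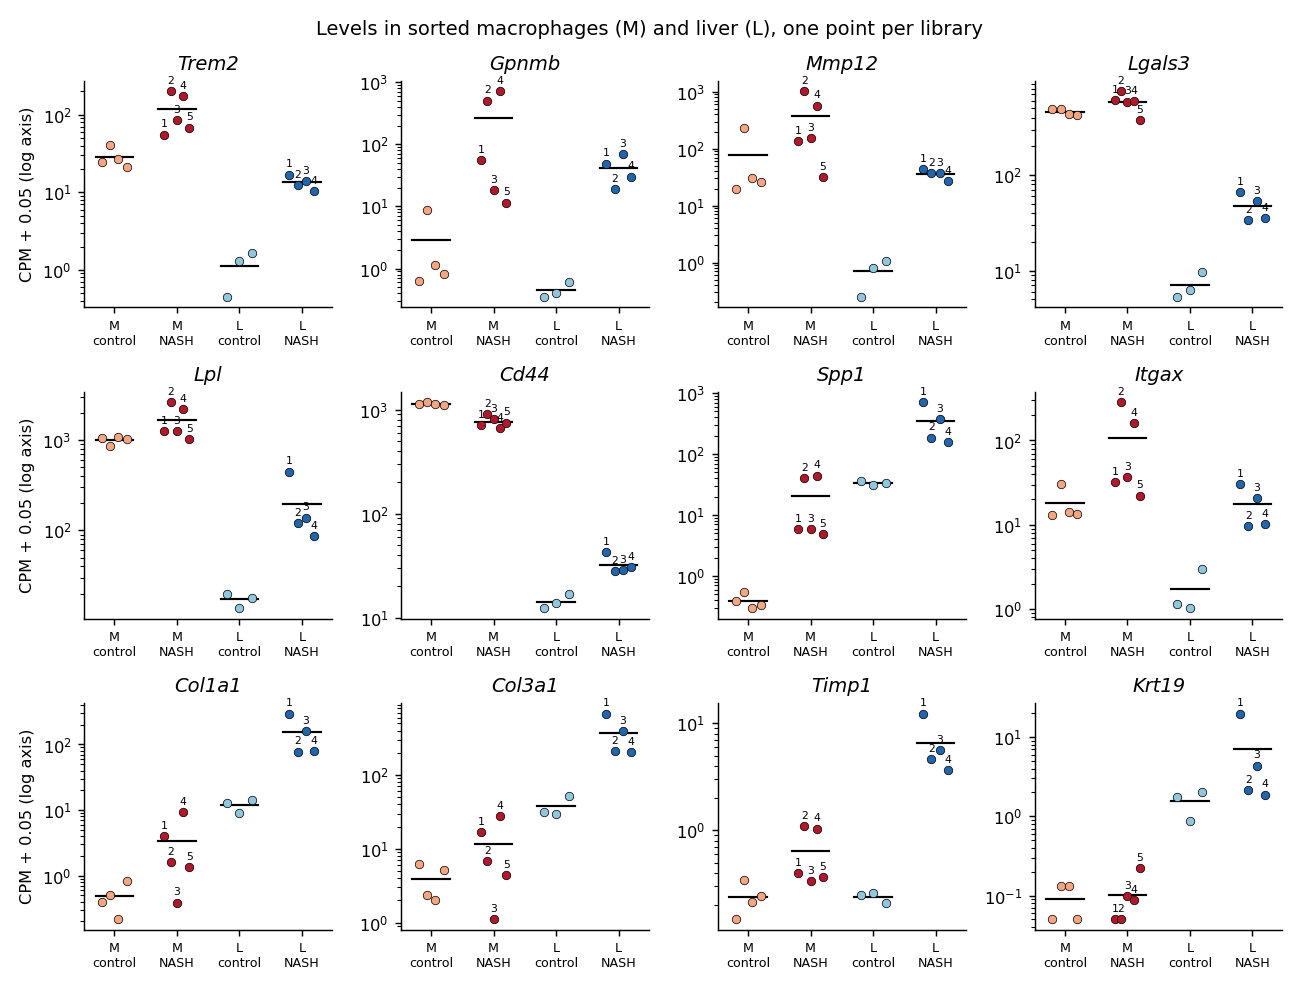
Levels of 12 genes (CPM + 0.05, log axis) in sorted macrophages (M) and liver (L) on the control and the NASH diet; each point is a library, lines are group means, and numbers mark the NASH replicates. Macrophage libraries 2 and 4 carry most Gpnmb, Mmp12, Itgax and Spp1, liver library 1 most Spp1, collagen and Krt19, and Spp1 and both collagens are higher in liver while Trem2, Lgals3, Lpl and Cd44 are higher in macrophages.

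Promoters of 3 genes that rose in liver are shown because Mmp12 and Ctss lay on the macrophage side and Spp1 on the liver side although each holds the same letters of a motif of PU.1, the factor of the myeloid lineage. The motif searched was GAGGAAGT, which on the other strand reads ACTTCCTC; it overlaps the core shared by other ETS factors. In the RefSeq promoters of GRCm38.p6, 300 bases each, 887 of 27025 (3.28%) hold it on either strand. The sequences run 5′ to 3′ on the strand of the gene, from 250 bases before to 10 after the start site, with the motif in capitals, 88 bases before the start in Mmp12, 113 in Spp1 and 2 in Ctss.
Mmp12 (chr9:7344147-7344406, plus strand): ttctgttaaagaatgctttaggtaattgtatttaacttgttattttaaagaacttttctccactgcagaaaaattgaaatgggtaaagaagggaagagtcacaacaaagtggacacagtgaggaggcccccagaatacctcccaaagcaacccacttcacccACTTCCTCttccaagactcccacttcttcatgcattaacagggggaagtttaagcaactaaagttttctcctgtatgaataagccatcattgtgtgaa
Spp1 (chr5:104434861-104435120, plus strand): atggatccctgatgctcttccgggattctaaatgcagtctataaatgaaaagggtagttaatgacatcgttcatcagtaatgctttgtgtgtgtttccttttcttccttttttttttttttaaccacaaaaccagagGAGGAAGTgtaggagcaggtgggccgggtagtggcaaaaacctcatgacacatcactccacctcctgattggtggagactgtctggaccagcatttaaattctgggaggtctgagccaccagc
Ctss (chr3:95526536-95526795, plus strand): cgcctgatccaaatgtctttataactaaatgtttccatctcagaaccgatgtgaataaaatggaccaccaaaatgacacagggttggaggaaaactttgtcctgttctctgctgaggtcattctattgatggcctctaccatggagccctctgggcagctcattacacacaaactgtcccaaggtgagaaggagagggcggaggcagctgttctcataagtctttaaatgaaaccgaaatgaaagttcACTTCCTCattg
The same letters were not found in the windows of the other 10 genes searched, Trem2, Gpnmb, Lgals3, Itgax, Mmp13, Cd44, Tlr2, Tnf, Col3a1 and Timp1, so that 3 of 13 held them. The 13 were named genes and not a random draw, and their count was not tested against the 3.28% of all promoters. A match is a description of these letters and not of binding.

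Osteopontin itself was a liver-side gene, and most of its receptors were macrophage-side genes. Spp1 stood at 702, 186, 370 and 159 CPM in NASH liver, at 35.5, 31 and 33.8 CPM in control liver and at 5.88, 40.8, 5.8, 44.3 and 4.84 CPM in NASH macrophages. Every NASH liver library lay above every macrophage library, with library 1 highest, and macrophage libraries 2 and 4 lay above the other 3. The difference was -4.12 (SE 0.85, adjusted p = 0.0012), -4.40 in females (adjusted p = 4.8e-06), and the share was 0.128%, or 0.21% without liver library 1, 0.0829% without macrophage library 4 and 0.0284% without macrophage libraries 2 and 4. With the diet Spp1 rose in liver by 3.38 (SE 0.52, adjusted p = 0.0014) and in macrophages by 5.95 (SE 0.96, adjusted p = 0.0077). Of its 9 receptor genes tested, 7 were higher in macrophages. Of the 10 genes with Spp1, 6 rose in liver (4 without liver NASH library 1, 2 without control liver library 2). Cd44, a hyaluronan and osteopontin receptor, stood at 706, 900, 807, 664 and 751 CPM in macrophages and at 42.7, 27.8, 28.4 and 30.4 CPM in liver. The groups did not overlap (4.55, SE 0.19, adjusted p = 1.7e-08) and the share was 52.7%. Cd44 rose in liver by 1.16 (SE 0.21, adjusted p = 0.003) and fell in macrophages by 0.50 (SE 0.14, adjusted p = 0.039). The integrin chains Itga4 (difference 3.98, share 35.4%) and Itga9 (3.93, share 34.3%) were also on the macrophage side and rose in liver, while Itgb1, a chain used by many integrins, differed by 1.21 (SE 0.09, adjusted p = 1e-06) and was not called with the diet.

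Collagens and other matrix genes that rose in liver had shares of at most 1.42%. Of 24 tested, 20 rose in liver (12 without control liver library 2, 17 without liver NASH library 1); 18 of the 20 were lower in macrophages and 0 higher. Col1a1, the main fibrillar collagen chain, stood at 296, 77.9, 159 and 80.1 CPM in NASH liver, at 12.9, 9.04 and 14.1 CPM in control liver and at 3.98, 1.54, 0.336, 9.27 and 1.29 CPM in macrophages. The 4 NASH livers lay above all other libraries and macrophage library 4 was the highest of its group. The difference was -5.52 (SE 0.83, adjusted p = 0.00014) and the share 0.0477%, or 0.0765% without liver library 1 and 0.0239% without macrophage library 4. Col3a1 had a share of 0.0679% (difference -5.03, SE 0.84, adjusted p = 0.00028), and Lum, a collagen-binding proteoglycan, 0.061% (-5.15, SE 0.66, adjusted p = 4.4e-05). The basement membrane chains Col4a1 and Col4a2 rose in liver and were not called between tissues, with shares of 1.38 and 1.42%; in macrophages they were highest in libraries 4 and 5 (Col4a1 225 and 150 CPM), which were also highest in endothelial genes. Thbs1, thrombospondin 1, was the one member higher in macrophages (1.71, SE 0.65, adjusted p = 0.034; without macrophage library 2 it was 0.97, adjusted p = 0.083). That call was also lost without macrophage library 1 (adjusted p = 0.052) and without any 1 of liver libraries 2, 3 and 4 (adjusted p = 0.078, 0.071 and 0.087).

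Enzymes that cut or cross-link matrix fell on both sides. Of 20 tested, 13 rose in liver (7 without control liver library 2), 4 of them on the macrophage side (Mmp12, Mmp13, Plau and Timp2) and 8 on the liver side. Mmp13, a collagenase, stood at 10.9, 218, 26.8, 65.1 and 23.3 CPM in macrophages and at 6.04, 2.49, 4.58 and 1.63 CPM in liver. Macrophage library 2 was far above the rest, and all 5 lay above liver (4.21, SE 0.95, adjusted p = 0.0022). Its share was 41.5%, or 18.1% without macrophage library 2, 10.1% without libraries 2 and 4 and 58.4% without liver library 1. Plau, the urokinase plasminogen activator, differed by 4.41 (SE 0.38, adjusted p = 2.1e-06) with a share of 47.8%. On the liver side Timp1, an inhibitor of metalloproteinases, stood at 12.3, 4.57, 5.57 and 3.61 CPM in NASH liver, at 0.159 to 0.208 CPM in control liver and at 0.288 to 1.04 CPM in macrophages. It rose in liver by 5.03 (SE 0.97, adjusted p = 0.0042), and its share was 0.204%, or 0.321% without liver library 1 and 0.0885% without macrophage libraries 2 and 4. Loxl1, a collagen cross-linking oxidase, had a share of 0.0412% (difference -5.71, SE 0.63, adjusted p = 1.4e-05).

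Fibrogenic ligands and receptors lay on both sides. Of 15 genes tested, 7 were higher in macrophages and 6 lower, near the shares of all genes. Of the 7 that rose in liver (1 without control liver library 2), 2 were on the macrophage side, the ligands Tgfb1 and Pdgfb. Tgfb1, the main fibrogenic cytokine, stood at 298, 258, 220, 232 and 220 CPM in macrophages and at 30.5, 22.3, 28.2 and 26.9 CPM in liver. The groups were well apart (3.17, SE 0.14, adjusted p = 2.7e-08), with a share of 20.2%. Pdgfb, a mitogen for stellate cells, differed by 3.11 (SE 0.47, adjusted p = 0.00014) with a share of 19.4%, or 33.4% without liver library 1. Its receptor Pdgfrb stood at 80.1, 24.6, 48.5 and 27.2 CPM in liver and at 1.05 to 4.29 CPM in macrophages, a difference of -4.38 (SE 0.49, adjusted p = 1.5e-05) and a share of 0.106%. Pdgfra had a share of 0.107%, Tgfb2 of 0.294%, and Inhbe, an activin chain made by hepatocytes, of 0.0015%. The receptors Tgfbr1, Tgfbr2 and Il13ra1 were higher in macrophages, the first 2 by 1.84 (SE 0.29) and 1.56 (SE 0.21), with shares of 8.01, 6.63 and 5.17%.

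Stellate and duct genes lay mostly on the liver side. Of 12 stellate cell genes 9 were lower in macrophages and 1, Hgf, higher; Dcn, decorin, stood at 486, 369, 428 and 333 CPM in liver and at 18.9, 13.2, 10.8, 63.2 and 21.6 CPM in macrophages, highest in library 4. Of the cholangiocyte genes 9 rose in liver, 4 without liver NASH library 1 and 1 without control liver library 2. Epcam, an epithelial adhesion molecule, stood at 27.1, 3.12, 8.58 and 3.85 CPM in NASH liver, at 1.04 to 1.58 CPM in control liver and at 0 to 0.152 CPM in macrophages. Liver library 1 was the highest, and all 4 lay above the controls (3.09, SE 0.74, adjusted p = 0.011). Cldn7, a tight junction protein, had 0 counts in the 5 macrophage libraries and 4.22 CPM in liver, at least 168-fold lower in macrophages at the same floor of 3 counts.

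**Figure D4:**
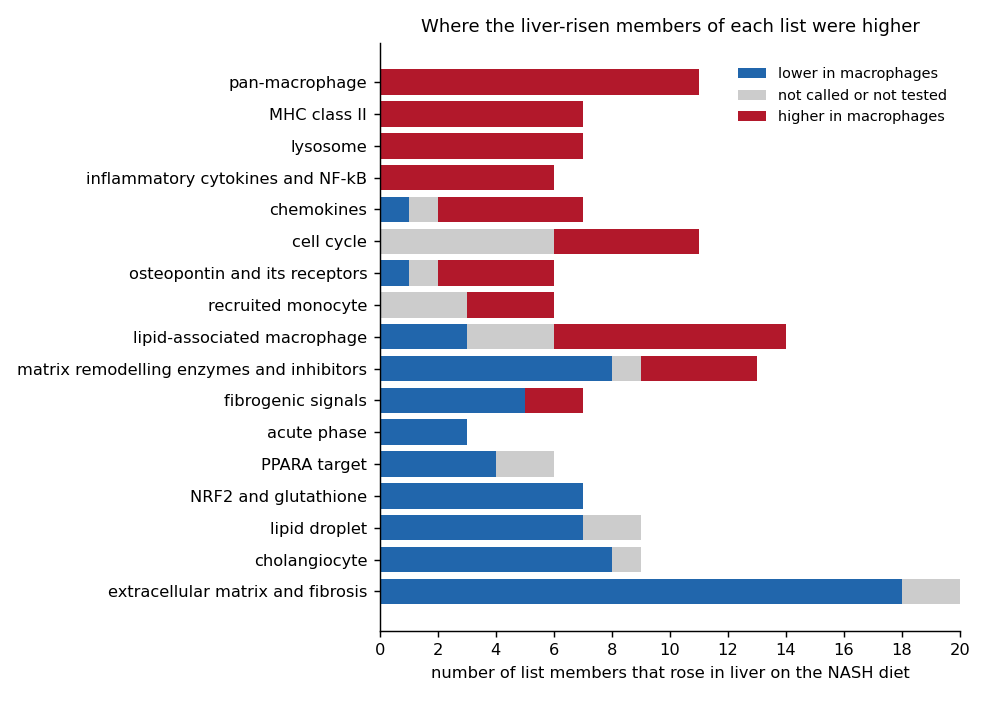
Number of members of each of 17 gene lists that rose in male liver on the NASH diet, split by whether they were lower in sorted macrophages than in liver (blue), not called or not tested (grey) or higher (red). The 11 pan-macrophage, 7 MHC class II and 7 lysosome members were all higher in macrophages, and the matrix list has 18 lower, 2 not called and 0 higher; 1 risen cholangiocyte gene was not tested between tissues and is drawn in grey.

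Chemokines were mostly macrophage-side genes, with a median share of 17.11%; the share was above 100% for 5, Ccl3, Ccl4, Ccl7, Ccl24 and Cxcl2. Of 19 chemokines 13 were higher in macrophages and 2 lower; 7 rose in liver (2 without control liver library 2), 5 of them on the macrophage side. Ccl2, the monocyte attractant, stood at 52.4, 43.8, 67.3, 98.9 and 89.2 CPM in macrophages, at 8, 4.91, 5.15 and 3.95 CPM in NASH liver and at 0.395 to 1.43 CPM in control liver. The 3 groups did not overlap. It rose in liver by 2.75 (SE 0.43, adjusted p = 0.0014) and differed by -0.57 between diets in macrophages (adjusted p = 0.29). Cxcl16, a membrane-bound chemokine, had a share of 17.1% and Ccl6 of 60.5%. Cx3cl1, the ligand of Cx3cr1, was the risen chemokine on the liver side, at 18.6, 3.12, 5.36 and 3.41 CPM in liver and 0.216 to 0.846 CPM in macrophages (-3.64, SE 0.61, adjusted p = 0.00031). The receptors Ccr2 and Cx3cr1 belong to a list of 11 recruited monocyte genes, of which 6 rose in liver and 1 fell. Between tissues 5 of the 11 were higher in macrophages and 1 lower, with a median log2 difference of -0.49. Their summed level was 1280 to 1963 CPM in NASH liver and 2760 to 3428 CPM in control liver. Ccr2 and Cx3cr1 rose in liver by 2.90 and 3.61 and had shares of 4.72 and 8.09% (the latter 12.6% without liver library 1). The call that Ccr2 was higher in macrophages (1.08, adjusted p = 0.049) was lost without macrophage library 2 (0.79, adjusted p = 0.11) and without macrophage library 4 (0.87, adjusted p = 0.10). That call was also lost without any 1 of liver libraries 2, 3 and 4 (adjusted p = 0.12, 0.071 and 0.12).

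All 18 genes of inflammatory cytokines and NF-kB were higher in macrophages, and 6 of them rose in liver (3 without liver NASH library 1, 1 without control liver library 2). Tnf stood at 66.7, 158, 182, 536 and 534 CPM in macrophages and at 2.72, 0.969, 0.52 and 1.19 CPM in liver. The groups were far apart (7.76, SE 0.87, adjusted p = 1.6e-05) and the share was 487%, or 816% without liver library 1. Tlr2, a receptor for bacterial lipoproteins, had a share of 32.8% and Casp1, the inflammasome protease, of 28.6%, or 50.8 and 45% without that library. Il1b had a share of 255% and differed by -0.66 between diets in liver (adjusted p = 0.24). At a share above 100% whole liver held less of the RNA than the scale assigns to such cells. Beside these genes, 17 of 18 immediate early and heat shock genes were higher in macrophages, among them Fosb at 1924 to 4101 CPM against 0.494 to 0.9 CPM (share 8760%), Nr4a1 (share 393%) and Hspa1a (share 1060%). Their summed level was 14780 to 26920 CPM in NASH macrophages and 880.2 to 1184 CPM in NASH liver, and the part of cell isolation in the cytokine levels was not tested.

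Most MHC class II genes and a smaller part of the lysosomal genes rose in liver, on the macrophage side. Of 10 MHC class II genes 9 were higher in macrophages. In liver 7 rose (4 without control liver library 2). In macrophages 0 of the 10 rose, which is near the 5.36% of all genes. H2-Aa, a class II alpha chain, stood at 252, 138, 174 and 113 CPM in NASH liver, at 34, 31.1 and 42.7 CPM in control liver and at 449, 3307, 1454, 2337 and 994 CPM in NASH macrophages. Liver libraries lay between the controls and the macrophages without overlap, and macrophage library 1 was lowest. H2-Aa rose in liver by 2.21 (SE 0.41, adjusted p = 0.0032), differed by -0.10 between diets in macrophages (adjusted p = 0.92), and had a share of 22.5%. Ctss, the protease that trims the class II invariant chain, differed by 3.69 (SE 0.27, adjusted p = 6.2e-07) with a share of 29%. Of 21 lysosomal genes 16 were higher in macrophages and 3 lower. In liver 7 of them rose and 1 fell (5 and 0 without control liver library 2), with a median diet effect of 0.32. The 7 that rose were all on the macrophage side. Psap, the sphingolipid activator precursor, and Hexa, a ganglioside hydrolase, had shares of 10.1 and 10.4%. Of 15 interferon response genes 12 were higher in macrophages and 0 rose in liver, but 12 rose when the control liver library that went against its sex label was left out.

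Part of the lipid droplet and PPARA target genes rose in liver, and most of these were lower in the sorted cells. Of 15 fatty acid synthesis genes 13 were lower in macrophages. In liver 1 of them rose and 3 fell (0 and 0 without control liver library 2). Of 16 lipid droplet genes 12 were lower in macrophages and 1, Hilpda, higher. In liver 9 lipid droplet genes rose (7 without control liver library 2) and 2 fell, and 7 of the 9 were on the liver side. Cidea, a lipid droplet protein of fat-storing cells, stood at 6.04, 123, 112 and 70.9 CPM in NASH liver and at 0 to 0.159 CPM in control liver. Liver library 1 was the lowest of the 4 and still above the controls (9.76, SE 1.82, adjusted p = 0.0035). Of 17 PPARA target genes 14 were lower and 0 higher in macrophages, and 6 rose in liver (3 without control liver library 2, 12 without the control library that went against its sex label). Acaa1b, a peroxisomal thiolase, stood at 1893, 3061, 3349 and 2782 CPM in liver and at 1.71 to 8.78 CPM in macrophages, a share of 0.00399%. Vnn1, pantetheinase, stood at 175 to 223 CPM in NASH liver and at 11.4, 12.6 and 114 CPM in control liver, the highest control being the library that went against its sex label.

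Acute phase, redox and cell cycle genes differed in side. All 16 acute phase genes were lower in macrophages, and in liver 3 rose (Orm2, Lcn2 and Hp; 1 without liver NASH library 1) and 3 fell (Itih3, Itih4 and Crp), with a median of -0.12. Lcn2, lipocalin 2, stood at 496, 96.6, 99.9 and 92.5 CPM in NASH liver and at 0.0959 to 0.389 CPM in macrophages, a share of 0.00282%, or 0.00636% without liver library 1. Of 13 NRF2 and glutathione genes 9 were lower in macrophages, among them all 7 that rose in liver (4 without control liver library 2); Gpx4, which reduces lipid peroxides, stood at 658, 506, 630 and 458 CPM in NASH liver against 221 to 236 CPM in control liver and 56.5 to 82.5 CPM in macrophages. Its groups did not overlap, and it rose in liver by 1.28 (SE 0.13, adjusted p = 8.9e-05). Of 22 cell cycle genes 13 were higher in macrophages and 0 lower. In liver 11 rose (7 without liver NASH library 1, 5 without control liver library 2). In macrophages 0 of the 22 rose, which is near the 5.36% of all genes. Mki67, a marker of dividing cells, stood at 203, 168, 47.9, 118 and 61.8 CPM in macrophages and at 32.7, 6.44, 7.39 and 5.39 CPM in liver. All macrophage libraries lay above liver (3.20, SE 0.68, adjusted p = 0.0014), and the share was 20.6%, or 46.1% without liver library 1. Arginase separated by isoform. Arg1, of the urea cycle, had a share of 0.00884% and fell in liver by 1.04 (adjusted p = 0.0014). Arg2, the mitochondrial form, stood at 51.7 to 96.5 CPM in macrophages and 0.346 to 0.599 CPM in liver (7.28, SE 0.30, adjusted p = 1.8e-08). The share of Arg2 was 354.5%, so whole liver held less of its RNA than the scale assigns to such cells.

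Among genes that fell in liver the largest macrophage-side differences were those of Nr4a1, Cd163, Klf2, Atf3 and Fcna, and the largest liver-side ones those of Cyp2c68, Gys2, Slc38a3, Gm8883 and F11. Cd163, the haptoglobin-haemoglobin receptor, stood at 0.163, 4.29, 2.34 and 16.1 CPM in NASH liver, at 27.1, 34.7 and 41 CPM in control liver and at 855, 333, 2014, 129 and 1294 CPM in macrophages. Every NASH liver lay below every control (-2.59, SE 0.75, adjusted p = 0.026), and macrophage libraries 2 and 4 were the lowest of their group. In macrophages its diet difference of -1.22 was not called (adjusted p = 0.39). Nr4a1 and Atf3 are immediate early genes; Atf3 stood at 297 CPM in the control liver library that went against its sex label and at 23.3 and 4.66 CPM in the other 2. Gys2, liver glycogen synthase, stood at 165 to 357 CPM in NASH liver and F11, coagulation factor XI, at 45.4 to 52.3 CPM, and both were at or below 0.266 CPM in macrophages. Gm8883 had 1 count in the macrophage libraries, a liver to macrophage ratio of 1860 (95% counting interval 334 to 73700).

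The macrophages' own response to the diet, which uses no liver library, was shared by a minority of the genes that rose in liver. In macrophages 699 genes rose (5.36% of 13036) and 369 fell (2.83%); without control macrophage library 2 these were 60 and 23, without macrophage NASH library 4 they were 204 and 73, and without libraries 2 and 4 together 34 and 13. Scaled by library totals the counts were 1052 and 138. Of 1287 liver-risen genes tested in macrophages, 131 (10.2%) rose there, 34 fell and 1122 were not called, where 5.43% of all 11813 genes tested in both rose in macrophages. The 131 included Spp1, Trem2, Gpnmb, Itgax, Cd63, Lgals1, Ccr2 and Cx3cr1. Of 14 sinusoidal endothelial genes 9 rose in macrophages with the diet and 0 without control macrophage library 2, without libraries 2 and 4 or without libraries 4 and 5. Of 24 matrix genes 5 rose in macrophages, also 0 under each of these 3 alternatives.

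**Figure D5:**
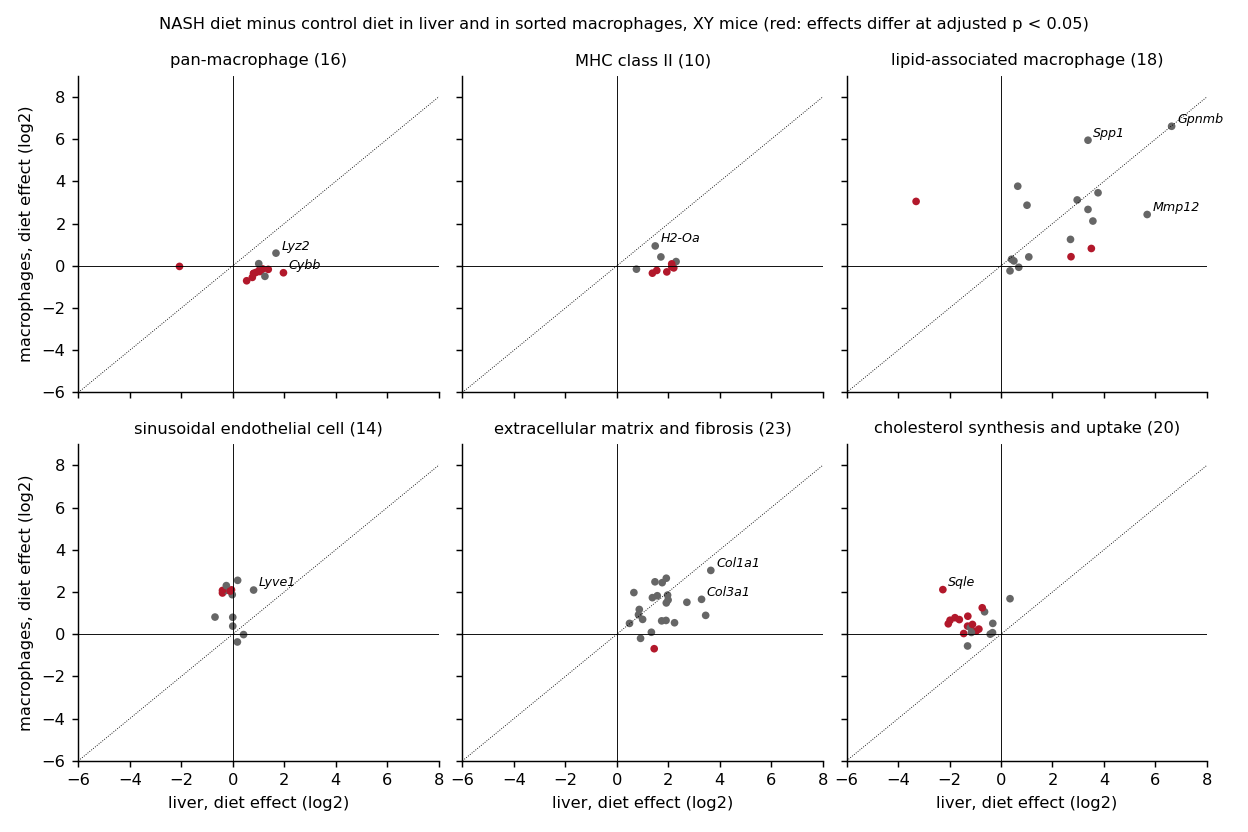
Diet effect (NASH minus control, log2 fold change) in male liver on the horizontal and in sorted macrophages on the vertical axis for the members of 6 gene lists; each point is a gene, red where the 2 effects differed at an adjusted p below 0.05, and the dotted line marks equal effects. Pan-macrophage and MHC class II members lie mostly above 0 in liver and near 0 in macrophages, lipid-associated members lie nearer the line, and cholesterol genes lie mostly below 0 in liver and near or above 0 in macrophages.

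The diet effects themselves differed in 287 genes more positive in macrophages (2.13% of 13502) and 783 more negative (5.80%); without control liver library 2 the counts were 125 and 261. For liver-risen genes the sign is partly fixed by their choice, since the difference uses the same liver libraries. The largest positive differences were those of Cux2, Fabp5, Enho, Tspan33, Sqle and Zap70. Fabp5, a fatty acid carrier, stood at 64.7, 52.1, 41 and 15.1 CPM in NASH liver and at 390, 538 and 320 CPM in control liver, and at 8.01, 39.7, 4.56, 41.7 and 8.82 CPM in NASH macrophages, where the control mean was 2.64 CPM. It fell in liver by 3.30 (SE 0.51, adjusted p = 0.0013) and rose in macrophages by 3.05 (SE 0.70, adjusted p = 0.02), most in libraries 2 and 4, a difference of 6.23 (SE 0.93, adjusted p = 0.0033). Cux2 stood at 113 CPM in the control liver library that went against its sex label and at 0.208 and 0.296 CPM in the other 2, and its difference of 6.82 became -0.35 (adjusted p = 0.85) without it. The largest negative differences were those of Ubd, Ephb2, Ear2, Cbr3, Cntnap1 and Rragd. Ephb2, a receptor tyrosine kinase, stood at 46.4, 56.2, 40.1 and 34 CPM in NASH liver, at 0.695 to 1.09 CPM in control liver and at 0 to 0.342 CPM in macrophages.

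Cholesterol genes differed in their diet effect between the tissues, while their levels came closer. The median log2 difference of macrophages from liver was -3.51 on the control diet and -1.84 on the NASH diet. On the NASH diet 18 of 20 were lower in macrophages. Of 20 genes of cholesterol synthesis and uptake, 12 fell in liver (7 without control liver library 2) and 3 rose in macrophages (0 without control macrophage library 2, and 0 without macrophage libraries 2 and 4), and for 12 the diet effect was more positive in macrophages (8 without control liver library 2).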

How the data were processed

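RNA was sequenced as TruSeq Stranded mRNA libraries, and the deposited tables hold raw counts per gene that the authors made against mm10, per the submitters' processing notes. Which aligner, counter and annotation they used is not given in the sources used here. The tables hold 24982 rows for 38 macrophage libraries, 23839 rows for 16 male liver libraries and 24982 rows for 16 female liver libraries. They were joined on 23732 symbols shared by the macrophage and male liver tables (24982 with the female table). Counts were tested with edgeR 4.0.16 (R 4.3.3; limma 3.58.1), quasi-likelihood test, TMM scaling, filterByExpr with a minimum count of 10 and a minimum total of 15, and Benjamini-Hochberg adjustment over all genes with a threshold of 0.05; macrophages and liver on the NASH diet were fitted alone in each sex, the control difference and the difference of diet effects in 1 fit of the 4 male WT groups, and each diet effect with all 4 male groups of its own table. CPM values use TMM-scaled library sizes.

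The fits were tested on simulated data. DESeq2 1.42.0, library totals, no filter, a replicate block, left-out libraries and 1 fit over all male groups were alternatives; leaving out macrophage libraries 2 and 4, or 4 and 5, was chosen after seeing the data. Genes were named as the 10 largest differences among liver-risen genes on each side and the 5 largest among fallen genes with at least 10 CPM in the liver group concerned, the 6 largest differences of diet effects each way, and members of 34 fixed lists (470 genes). The members and lists were chosen with earlier results of these data known. The labels do not say whether replicates came from separate animals, so p-values measure only the spread between these samples. Promoters are those of RefSeq on GRCm38.p6. Some members of the lists are not reported here.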

Additional observations from a re-analysis of the deposited data

Results flagged for a closer look

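In groups of 4 or 5 libraries, 34 of 310 gene levels had 1 library far from the rest of its group (11%). Normally distributed values would give about 1 in 20. These levels were CPM without log scale, of genes named in this text, so that rate is not their chance rate. Liver NASH library 1 was that library in 22 cases. It was highest for Cybb (170.7 CPM), Lpl (446.8), Lum (85.1), Pdgfb (15.41), Krt19 (19.71), Cx3cl1 (18.57), Tnfaip3 (24.12), Il1rn (38.93), Tlr2 (18.57) and Nfkb2 (45.46 CPM). It was also highest for Lcn2 (495.5 CPM), Gstm3 (1047), Gsta2 (72.74), Mki67 (32.67), Cdk1 (13.29), Ier5 (24.61), H19 (468.8), Atf3 (15.63), Cbr3 (36.64), Rragd (70.62) and Scd2 (336.2 CPM), and lowest for Inhbe (65.01 CPM). In liver, library 4 was highest for Csf1r (148.2 CPM) and library 3 lowest for F11 (45.42 CPM).

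Among macrophage libraries, library 4 was highest for Fabp4 (81.52 CPM), Dcn (63.16), Cxcl12 (49.94) and Gstm3 (1.976 CPM). Library 2 was highest for Mmp2 (7.411 CPM) and Mmp13 (217.5 CPM), library 1 highest for Marco (2024 CPM) and lowest for Il1b (370.9 CPM), library 3 highest for Tyrobp (895.6 CPM) and library 5 highest for Tgfb2 (1.046 CPM).

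The diet effect differed between macrophages and liver by edgeR's interaction test for 287 genes in the positive and 783 in the negative direction. On the log2 scale the largest positive differences were 6.82 for Cux2, 6.23 for Fabp5, 4.84 for Enho, 4.33 for Tspan33, 4.24 for Sqle and 4.10 for Zap70. The largest negative ones were -6.78 for Ubd, -5.25 for Ephb2, -4.63 for Ear2, -4.29 for Cbr3, -4.28 for Cntnap1 and -3.97 for Rragd. That of Cux2 rested on 1 control liver library.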

How the results depend on the processing

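The counts of genes differing between macrophages and liver stayed within 1.5 times under every alternative run, while diet counts did not. With library totals the diet effects differed in 183 genes in the positive direction, liver diet calls were 2523 higher and 420 lower, and macrophage diet calls 1052 and 138. With DESeq2 697 genes differed positively between diet effects, and macrophage calls were 1143 and 587. Without the filter 160 genes fell in macrophages. Without the libraries that went against their sex label macrophage calls were 165 and 119. Without macrophage libraries 2 and 4 they were 34 and 13, with 183 positive differences of diet effects, and without libraries 4 and 5 they were 93 and 41, with 185. Leaving out 1 library at a time gave 125 to 373 positive and 261 to 805 negative differences of diet effects (540 and 1040 without the merged control liver sample), 556 to 1423 risen and 567 to 1375 fallen genes in liver (1828 and 1548 without that sample), and 60 to 898 risen and 23 to 514 fallen genes in macrophages. It gave 409 to 689 risen genes on the macrophage side and 377 to 530 on the liver side, and 24 to 110 genes with a share of 50% or more; that class held 265 with the pan-macrophage reference and 25 without macrophage libraries 2 and 4. The cause was not tested.

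Replicate numbers gave no sign of pairing: deviations of same-numbered libraries correlated at -0.11 to -0.02 over 4 pairs, and 0 of 4 were closest to their own number. Deviations of sorted cells and of whole liver need not correlate within an animal, so this check cannot exclude pairing. With the replicate block 516 genes differed negatively between diet effects, and macrophage diet calls were 1156 and 796. The call for Ccr2 between tissues was lost under the block (adjusted p = 0.14).

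Of 10612 values recomputed for named genes, 9784 kept direction and side of the threshold, 663 lost their call, 160 gained one and 5 turned direction. Cbr3 between tissues ranged from -0.60 without liver NASH library 2 to 1.62 (adjusted p = 1e-04) without library 1. The Cux2 difference of diet effects became -0.35 without control liver replicates 3 and 4 and -0.28 without all libraries against their sex label, and the diet effect of Hspa1a in liver became 0.10 under both. Genes at 0 to 3 counts in macrophages are limited by depth.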
